A study of Bos taurus with 8 samples.

Results

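The enzymes that break down fatty acids were examined in granulosa cells, the somatic cells that surround the oocyte and make estradiol in the follicle. The set is a list of 34 gene symbols, of which 32 were found among the 15229 symbols of the array's probe annotation, ECI1 under its older symbol DCI and ECI2 under PECI. ACAD9 and HADHA were not matched to a probe and were not analysed here. Each gene was represented by its probe with the highest mean log2 scanner intensity over the 8 arrays, and all 32 were among the 32445 features tested. Per the labels, dominant follicles above 9 mm were aspirated from Holstein cows at day 60 after calving, 42 h after a single injection labelled PG. The cows were sorted by blood beta-hydroxybutyrate into BHBH (high, severe negative energy balance) and BHBL (low, mild negative energy balance). Each group held 12 cows whose RNA was combined into 4 pools of 3, amplified and hybridised BHBH against BHBL on 8 two-colour arrays, so that no value belongs to 1 cow.

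Fatty acids enter oxidation as acyl-CoA esters made by acyl-CoA synthetases. The carnitine shuttle carries long chains across the inner mitochondrial membrane, where an acyl-CoA dehydrogenase, a hydratase, a hydroxyacyl-CoA dehydrogenase and a thiolase take off acetyl-CoA in repeated rounds. Electrons of the first step reach the respiratory chain through the electron transfer flavoprotein, and peroxisomes shorten very long and branched chains by a related route. In negative energy balance, body fat is released and circulating fatty acids rise, as does beta-hydroxybutyrate, a ketone body the liver makes from them.

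All values are log2 ratios, BHBH over BHBL, deposited by the authors for each array, unless a level is named. Both dye-swapped arrays with the same area number were averaged to a pool pair, numbered 1 to 4, so n = 4. The labels do not name the pools, and the area number, with an array titled area 1.2 taken as area 1, stands for them. Pairs have no order, and a ratio does not show which of its pools differs. Slide 289 carried BHBH in Cy5 and slide 288 BHBL in Cy5, so slide and dye orientation cannot be told apart, and their joint effect cancels in the average. Over all features, arrays of the same area correlated at 0.650 to 0.801, whereas pool pairs correlated between -0.421 (pairs 1 and 4) and 0.434. The direction was taken from the labelled dyes. The 10 granulosa markers examined, FSHR and CYP19A1 among them, were above the negative controls on all 8 arrays in both groups, as were 9 of 10 macrophage and leukocyte markers and 6 of 8 epithelial markers. In pooled cells, fewer cells of a type and less RNA per cell cannot be told apart.

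No fatty acid oxidation gene passed the test of BHBH against BHBL. In limma's test of the 4 pool pairs against 0, 0 of 32 members were called at an adjusted p (Benjamini-Hochberg over all features) under 0.05, beside 0 of 32445 features (0%). At an unadjusted p under 0.05 there were 0 of 32 members and 5.24% of features. With the 8 arrays fitted singly and the area as a replicate block, limma called 102 features and still 0 members. The members' adjusted p over the 4 averages lay between 0.915 and 0.996. Their mean ratios ran from -1.11 for ACSL5 to 0.53 for ACAA1, with a median of 0.051 (0.016 over all features), 20 above 0 and 12 below it (43.9% of features below 0). With ratios computed from the scanner intensities by normexp and loess the median was -0.0035, with 17 below 0, so the set had no direction that held under both scalings. For 27 of 32 members the 95% interval of the mean lay within a 2-fold difference either way (89.5% of features), and the intervals of CRAT, ACSL5, ECI1, ACAA1 and CROT reached beyond it.

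Most members differed between pool pairs. A moderated F test asked whether the ratio differed among the 4 pairs by more than the dye-swapped arrays of a pair differ, and it called 27 of 32 members at an adjusted p under 0.05, beside 54.3% of all features and 66.4% of named genes. Those not called were CPT1B, ACSL4, DECR1, EHHADH and DECR2, with adjusted p values from 0.0592 for DECR1 to 0.473 for DECR2. Under the alternatives DECR1 was called in 4 of 11 fits (adjusted p down to 0.0224, without pair 1), ACSL4 in 1 (0.0103, without background correction) and CPT1B in 1 (0.0471, named genes alone). The test concerns these pools of 3 cows, and it says nothing of the groups. The median absolute difference between the arrays of a pair was 0.168 over members, against 0.396 between pool pairs. Over all features the same medians were 0.209 and 0.195. The SD over the 4 pairs had a median of 0.365 over members, 0.197 over features and 0.279 over named genes, and it was above 0.5 for 13 of 32 members (19.7% of features).

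**Figure D1:**
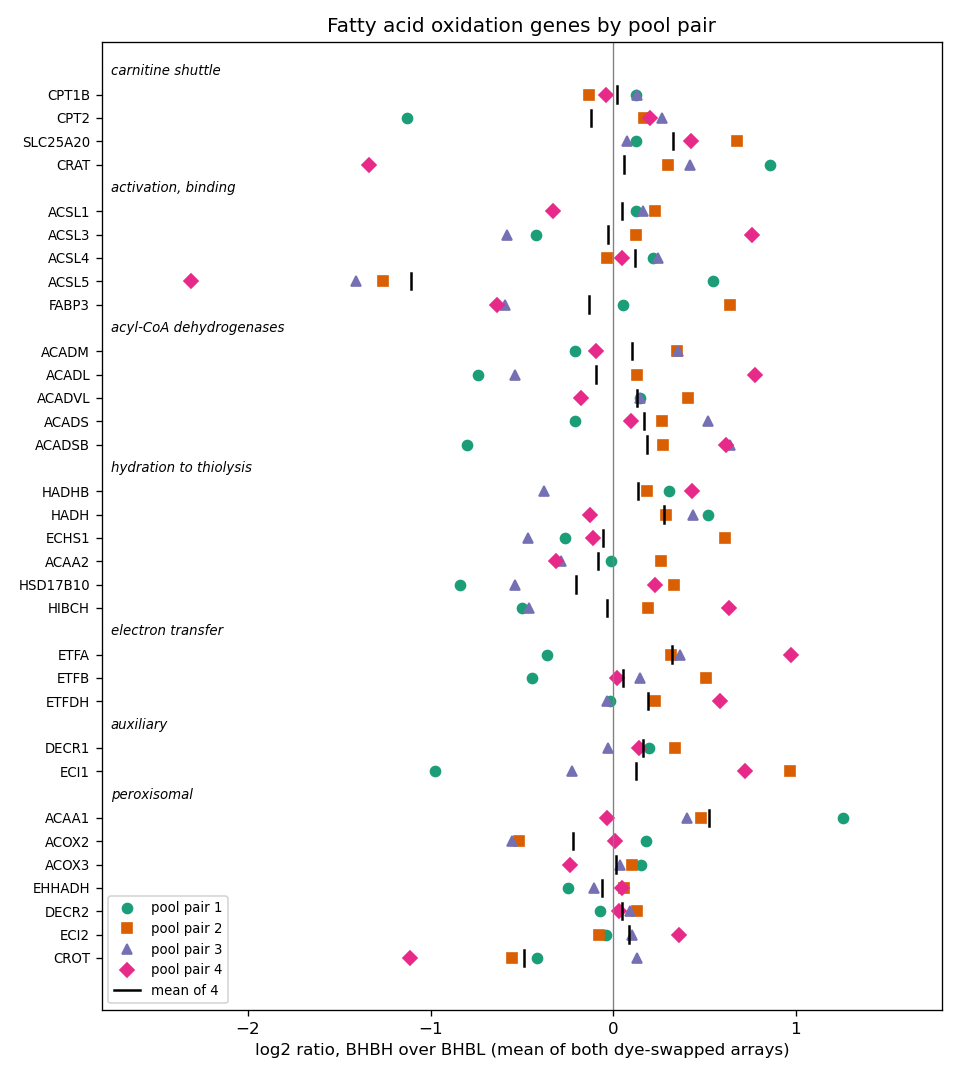
Log2 ratio, BHBH over BHBL, of the 32 measured genes in each of the 4 pool pairs, grouped by step of the pathway, with 1 point per pair (mean of 2 dye-swapped arrays). Most genes have points on both sides of 0, and the points of ACSL5 run from -2.31 to 0.55.

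The plot of pool-pair ratios by step shows points of the same gene on both sides of 0 for every member other than SLC25A20. Pool pair 2 was the most one-sided, with 26 of 32 members higher in BHBH (54.1% of features). In pair 1, 14 of 32 were higher (50.7% of features). In pairs 3 and 4 the members higher in BHBH numbered 18 (52.8% of features) and 19 (58.3%). Values of at least 2-fold were few: CPT2 and ACAA1 in pair 1 (5.05% of features), ACSL5 in pair 2 (3.92%), ACSL5 in pair 3 (3.57%), and CRAT, ACSL5 and CROT in pair 4 (5.01%).

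**Figure D2:**
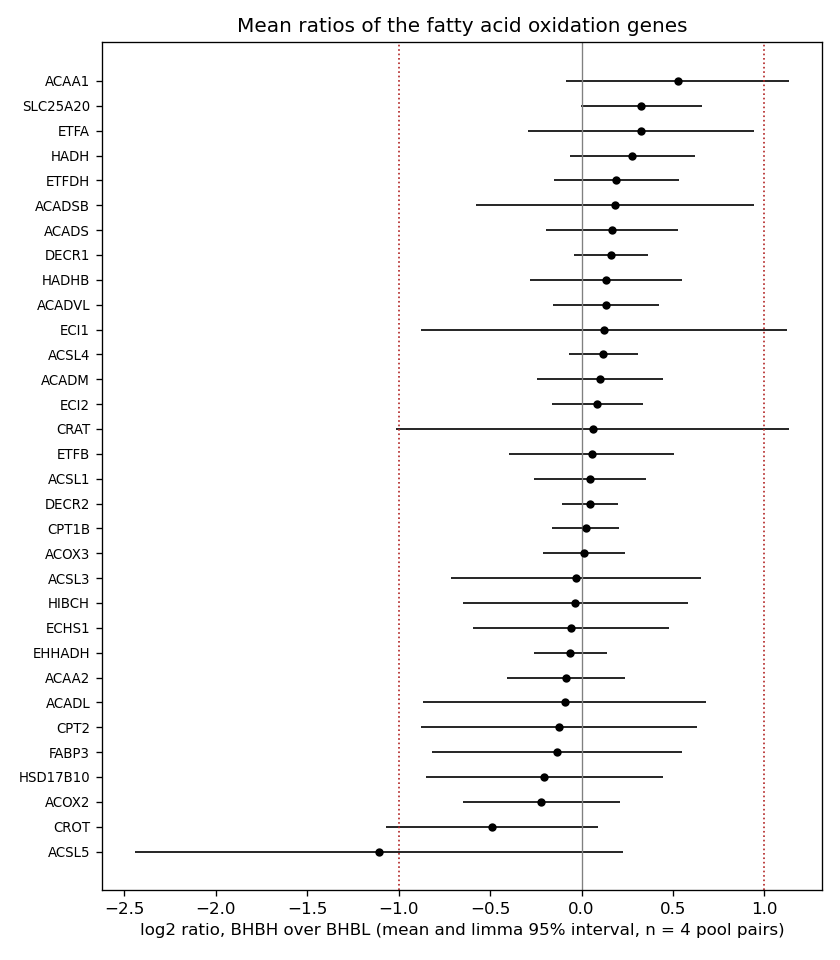
Mean log2 ratio, BHBH over BHBL, of each measured gene over 4 pool pairs, with its 95% interval from limma as a bar. Every interval includes 0, and that of ACSL5, whose mean is -1.11, is the widest.

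The carnitine shuttle held the single gene with 1 direction in every pair. SLC25A20, the translocase that exchanges acylcarnitine for carnitine across the inner membrane, had ratios of 0.13, 0.68, 0.077 and 0.43 in pool pairs 1 to 4. It was higher in BHBH in every pair, 1 of 32 members to be so (9.21% of features), and on all 8 arrays (1.71% of features). Its mean was 0.33 ± 0.12 (SE), and it did not pass (limma, unadjusted p = 0.0525, adjusted p = 0.915). Without pair 2 the mean of SLC25A20 was 0.21. Its size differed between pairs (adjusted p of the F test = 0.000705), being largest in pair 2. In all 4 pairs 0 of 32 members were lower in BHBH (6.31% of features), and 0 were lower on all 8 arrays (1.6%).

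CPT1B, the muscle form of the outer-membrane enzyme that makes acylcarnitine, had a dim probe that exceeded the negative controls on 7 arrays in BHBH and 5 in BHBL. Its ratios were 0.12, -0.13, 0.13 and -0.038 (mean 0.022 ± 0.068, adjusted p = 0.984), all within 1.1-fold, and the F test did not call it (adjusted p = 0.0674). These averages come from dye-swapped arrays that differed in sign in every pair. Slide 289 gave -0.027, -0.26, -0.052 and -0.23, and slide 288 gave 0.28, 0.0022, 0.31 and 0.15. A joint dye and slide term was called for CPT1B (limma, adjusted p = 0.00301). CPT2, the inner-membrane enzyme that turns acylcarnitine back to acyl-CoA, gave -1.13, 0.17, 0.27 and 0.20 (mean -0.12 ± 0.28, adjusted p = 0.976). Pair 1 stood alone, 2.19-fold lower in BHBH, while the other pairs were slightly higher. The F test called CPT2 (adjusted p = 1.15e-05) but no longer did so without pair 1 (adjusted p = 0.686), when the mean was 0.21. CRAT, which moves acetyl groups between CoA and carnitine, was higher in pairs 1 to 3 and 2.53-fold lower in pair 4, with 0.86, 0.30, 0.42 and -1.34 (mean 0.060 ± 0.40, adjusted p = 0.995, F test 2.66e-07). Without pair 4 its mean was 0.53. The further probe of CRAT was at background (above the negative controls on 1 array in BHBH and 2 in BHBL) and gives no check of these ratios.

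Among the genes of activation and binding, ACSL5 had the widest spread of the set. This long-chain acyl-CoA synthetase had ratios of 0.55, -1.26, -1.41 and -2.31 and a mean of -1.11 ± 0.50, which is 2.16-fold lower in BHBH (adjusted p = 0.915). BHBH was higher in pair 1 and lower in pairs 2 to 4, and pairs 1 and 4 differed most (F test, adjusted p = 1.09e-06). Without pair 1 its mean was -1.66, with an unadjusted p of 0.00486 and an adjusted p of 0.430. A further probe of ACSL5, dim and above the negative controls on 7 arrays in BHBH and 6 in BHBL, gave 0.13, 0.071, 0.083 and 0.11. The signs of ACSL5 over the 4 pairs (7.81% of features) were also those of some markers of other cell types, among them the keratin KRT8 (3.62, -3.46, -4.07 and -1.90, saturated on 1 array) and the collagen COL3A1 (3.74, -1.44, -3.39 and -4.51). Other markers of the same lists had other signs: KRT7, EPCAM, CLDN4, MUC1 and LUM were lower in BHBH in every pair, and INSL3 and PDGFRB were higher in every pair. PDGFRB was dim, above the negative controls on 6 arrays in BHBH and 2 in BHBL. The part of these markers in the ACSL5 ratios was not tested.

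ACSL1, the main synthetase of fat and liver, was close to 0 in every pair, at 0.12, 0.23, 0.16 and -0.33 (mean 0.047 ± 0.11, adjusted p = 0.978, F test 0.00888). The F call of ACSL1 was lost without pair 4 (adjusted p = 0.657). ACSL3, a synthetase tied to lipid droplets, swung from lower to higher, at -0.42, 0.13, -0.58 and 0.76 (mean -0.029 ± 0.25, adjusted p = 0.996, F test 7.04e-06). Its 2 further probes, both above the negative controls on all 8 arrays in both groups, were below 0 in pair 2 (-0.13 and -0.051). In the other pairs they had the signs of the probe used. ACSL4, which prefers arachidonic acid, gave 0.22, -0.033, 0.24 and 0.049 (mean 0.12 ± 0.070, adjusted p = 0.915, F test 0.130). FABP3, which binds fatty acids in the cytosol, was high in pair 2 and low in pairs 3 and 4, at 0.055, 0.64, -0.59 and -0.64 (mean -0.13 ± 0.25, adjusted p = 0.970, F test 7.62e-06). The 4 synthetases thus did not share a pattern over the pools.

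The 5 measured acyl-CoA dehydrogenases, which carry out the first step of each round, were all higher in BHBH in pair 2, and 4 of 5 were lower in pair 1. For ACADL the arrays of pair 2 differed in sign (0.33 on slide 289 and -0.069 on slide 288). ACADM, for medium chains, had -0.21, 0.35, 0.35 and -0.093 (mean 0.10 ± 0.13, adjusted p = 0.95). ACADVL, for very long chains, had 0.15, 0.41, 0.15 and -0.17 (mean 0.13 ± 0.11, adjusted p = 0.925), and ACADS, for short chains, had -0.21, 0.27, 0.52 and 0.10 (mean 0.17 ± 0.13, adjusted p = 0.925). These 3 stayed within 1.5-fold in each pair. ACADSB, for short branched chains, ran wider, at -0.80, 0.27, 0.64 and 0.62 (mean 0.18 ± 0.28, adjusted p = 0.963). ACADL, for long chains, alternated in sign, at -0.74, 0.13, -0.54 and 0.78 (mean -0.093 ± 0.29, adjusted p = 0.984). The F test called all 5, at adjusted p values from 5.47e-06 for ACADSB to 0.00938 for ACADM. The ACADVL call was lost without pair 2 (adjusted p = 0.0829) and without pair 4 (0.117).

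At the later mitochondrial steps, HADH was lower in BHBH in pair 4 alone (signs shared by 7.14% of features) and HADHB in pair 3 alone (4.33%). By pair averages, ECHS1 and ACAA2 were higher in BHBH in pair 2 alone (3.54% of features). HADH, a dehydrogenase for short and medium hydroxyacyl-CoA, had 0.52, 0.29, 0.43 and -0.13 (mean 0.28 ± 0.13, adjusted p = 0.915, F test 0.00129), and without pair 4 its mean was 0.41 and the F call was lost (adjusted p = 0.154). HADHB, the thiolase-bearing beta subunit of the trifunctional protein, was lower in pair 3 alone, at 0.30, 0.18, -0.38 and 0.43 (mean 0.13 ± 0.15, adjusted p = 0.944, F test 0.000315), and without that pair it was not called (adjusted p = 0.172). Its partner subunit HADHA was not analysed here.

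HSD17B10, which also serves the breakdown of isoleucine, and HIBCH, an enzyme of valine breakdown listed with these steps, changed sign from pair to pair. HSD17B10 gave -0.84, 0.33, -0.54 and 0.23 (mean -0.20 ± 0.24, adjusted p = 0.945, F test 6.89e-06), and both further probes of the gene had the same signs. HIBCH gave -0.50, 0.19, -0.46 and 0.63 (mean -0.033 ± 0.23, adjusted p = 0.995, F test 1.05e-05), and its 4 further probes, none of them above the negative controls on all 8 arrays, did not share 1 sign of the mean. ECHS1, the short-chain enoyl-CoA hydratase, had -0.26, 0.61, -0.47 and -0.11, and ACAA2, the mitochondrial thiolase, had -0.0099, 0.26, -0.28 and -0.31. Both were higher in BHBH in pair 2 and below 0 elsewhere, and without pair 2 neither was called by the F test (adjusted p = 0.140 and 0.0675). For ECHS1 in pair 4 the dye-swapped arrays differed in sign (-0.34 on slide 289 and 0.11 on slide 288). For ACAA2 they did so in pair 1 (-0.042 and 0.023). Both further probes of ACAA2 had means above 0, opposite to the probe used, and gave 0.21 and 0.26 in pair 3.

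By pair averages, some of them near 0, the electron transfer genes were lower in BHBH in pair 1 and higher in pairs 2 and 4. The dye-swapped arrays of ETFDH differed in sign in pair 1 (-0.091 on slide 289 and 0.057 on slide 288). Those of ETFB did so in pair 4 (-0.18 and 0.22). ETFA, the alpha subunit of the flavoprotein, reached 1.96-fold in pair 4, at -0.36, 0.32, 0.37 and 0.97 (mean 0.32 ± 0.23, adjusted p = 0.917, F test 1.25e-05). A dim further probe of ETFA, above the negative controls on 7 arrays in each group, stayed between -0.17 and -0.012. ETFB, the beta subunit, had -0.44, 0.51, 0.15 and 0.019 with its largest value in pair 2, so the subunits did not peak in the same pair. The 3 further probes of ETFB were above the negative controls on all 8 arrays in both groups. They gave -0.079, -0.20 and 0.011 in pair 1, and -0.060, 0.014 and -0.048 in pair 4. ETFDH, which passes the electrons to ubiquinone, had -0.017, 0.23, -0.033 and 0.58 (mean 0.19 ± 0.13, adjusted p = 0.916, F test 0.000682), and without pair 4 its F call was lost (adjusted p = 0.0601).

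Of the auxiliary enzymes that prepare unsaturated chains, ECI1 had one of the widest spreads. This enoyl-CoA isomerase gave -0.98, 0.97, -0.23 and 0.72 (mean 0.12 ± 0.37, SD 0.90, adjusted p = 0.984, F test 1.31e-06). Pairs 1 and 3 were below 0 and pairs 2 and 4 above it. A further probe of ECI1 had the same signs, at -0.51, 0.53, -0.18 and 0.44. DECR1, the dienoyl-CoA reductase, was narrow, at 0.20, 0.34, -0.026 and 0.14 (mean 0.16 ± 0.076, adjusted p = 0.915, F test 0.0592).

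Over the 16 measured mitochondrial enzymes, the deposited ratios of pair 2 were higher in BHBH for 16 of 16 (54.1% of features). Those of pair 1 were lower for 12 of 16 (50.7% of features were higher there). With normexp and loess, ACADL and HADHB were lower in BHBH in pair 2 (log2 levels of 8.24 against 8.35, and 13.06 against 13.09). The pair medians of the 16 enzymes were -0.24, 0.30, -0.030 and 0.19, highest in pair 2. Of the 10 granulosa markers, 8 were lower in pair 1, and 8, 6 and 9 were higher in pairs 2, 3 and 4. The granulosa pair medians were -0.54, 0.56, 0.091 and 0.95, highest in pair 4 and opposite in sign to the enzymes in pair 3. These markers thus followed the enzymes in some pairs and not in others. Their part in the mitochondrial ratios was not tested.

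Of the 7 peroxisomal enzymes, ACAA1 had the highest mean of the members over 4 pairs and CROT the second lowest, and neither place held on leaving out 1 pair. ACAA1, the peroxisomal thiolase, had 1.26, 0.48, 0.40 and -0.037 (mean 0.53 ± 0.23, adjusted p = 0.915, F test 4.61e-05). Pair 1 was 2.39-fold higher in BHBH and pair 4 near 0, and without pair 1 the mean of ACAA1 was 0.28, below that of ETFA (0.55). CROT, which makes medium-chain acylcarnitines for export, had -0.42, -0.55, 0.13 and -1.11 (mean -0.49 ± 0.22, 1.40-fold lower, adjusted p = 0.915, F test 1.60e-05). Pair 3 was above 0 and the others below it, and without pair 4 the mean of CROT was -0.28. The further probe of CROT was above the negative controls on 0 arrays and gives no check.

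ACOX2, the oxidase for branched chains and bile acid intermediates, was lower in pairs 2 and 3 alone, signs shared by 5.06% of features, at 0.18, -0.52, -0.56 and 0.012 (mean -0.22 ± 0.16, adjusted p = 0.918, F test 0.000235). A further probe of ACOX2, above the negative controls on 3 arrays in each group, had a mean of 0.040. EHHADH, the bifunctional hydratase and dehydrogenase, was dim, above the negative controls on 5 arrays in BHBH and 7 in BHBL, at -0.25, 0.061, -0.11 and 0.049 (mean -0.061 ± 0.074, adjusted p = 0.946, F test 0.315). The other peroxisomal members stayed within 1.3-fold in each pair. They were ACOX3, an oxidase, at 0.15, 0.10, 0.037 and -0.23, DECR2, a reductase, at -0.072, 0.13, 0.091 and 0.034, and ECI2, an isomerase, at -0.042, -0.078, 0.10 and 0.36. The F calls of ACOX3 and ECI2 were lost without pair 4 (adjusted p = 0.673 and 0.275), and that of ECI2 also without pair 2 (0.0815). ACOX3 was not called either with normexp and loess ratios (adjusted p = 0.251).

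**Figure D3:**
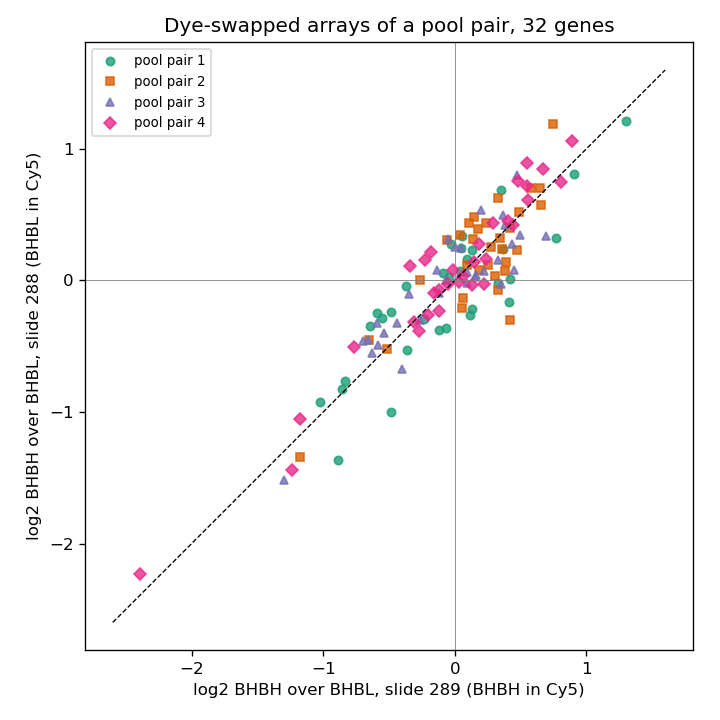
Ratio on slide 288 (vertical axis) against that on slide 289 (horizontal axis), both log2 BHBH over BHBL, with 1 point per measured gene and pool pair. Points far from 0 lie near the diagonal, as do the 4 values of ACSL5.

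The plot of slide 288 against slide 289 shows how far a pool pair's ratio repeated with the dyes swapped. Over the 32 members, arrays of the same area correlated at 0.813 to 0.966, and arrays that shared neither area nor slide at -0.559 to 0.513. These correlations are across genes that share labelled RNA, so they describe how far the arrays repeat. A joint dye and slide term was called for 11 of 32 members (limma, adjusted p under 0.05), beside 47.4% of features.

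The members were spread over 14 of the 16 possible sign patterns of pairs 1 to 4, which were counted after the values were seen. The 3 most frequent held 19 of 32, and 9 others held 1 member each. The largest group, of 7, held ACSL3, ACADL, HSD17B10, HIBCH, ETFDH, ECI1 and EHHADH, which were lower, higher, lower and higher in BHBH (11.4% of features). The granulosa markers FSHR (-1.52, 1.23, -0.47 and 2.04) and CYP19A1 (-1.45, 0.66, -1.41 and 1.22), receptor for FSH and aromatase, had the same signs, as did INHA (a saturated probe) and HSD17B1. Another 6, CPT2, ACADS, ACADSB, ETFA, ETFB and DECR2, were lower in pair 1 and higher in the rest (11.2% of features), as were the granulosa markers FOXL2, INHBA (a saturated probe), AMH and FST. The granulosa markers NR5A2 and CDH2 had neither pattern. All these signs are those of pair averages, and some averages are near 0. The dye-swapped arrays differed in sign for ACSL3 and ACADL in pair 2 and for ETFDH in pairs 1 and 3. They also did so for EHHADH in pairs 2 and 4. In the group of 6 they differed for ACADS and ETFB in pair 4 and for DECR2 in pairs 1 and 4. EHHADH and DECR2 were not called by the F test. The signs are also those of 1 probe per gene. Both further probes of ACSL3 were below 0 in pair 2. In pair 1 the further probes of DECR2, above the negative controls on all 8 arrays in both groups, gave 0.36, -0.11 and 0.24.

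A further 6, CRAT, ACSL1, ACADVL, HADH, ACAA1 and ACOX3, were higher in pairs 1 to 3 and lower in pair 4 (7.14% of features). The macrophage markers CD14 (2.84, 1.51, 1.24 and -3.01) and CD163 (0.91, 2.52, 1.58 and -4.39) had those signs, with CD68, CSF1R and ITGAM, and the other 5 of that list had other signs. ITGAM was dim, above the negative controls on 5 arrays in BHBH and 2 in BHBL. Of the 10 macrophage and leukocyte markers, 10 were lower in BHBH in pair 4, and the pair medians were 0.91, 0.58, 0.79 and -1.76. For ACSL1 and ACOX3 the dye-swapped arrays differed in sign in pairs 1 and 3. Whether either marker group has a part in the members' ratios was not tested.

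**Figure D4:**
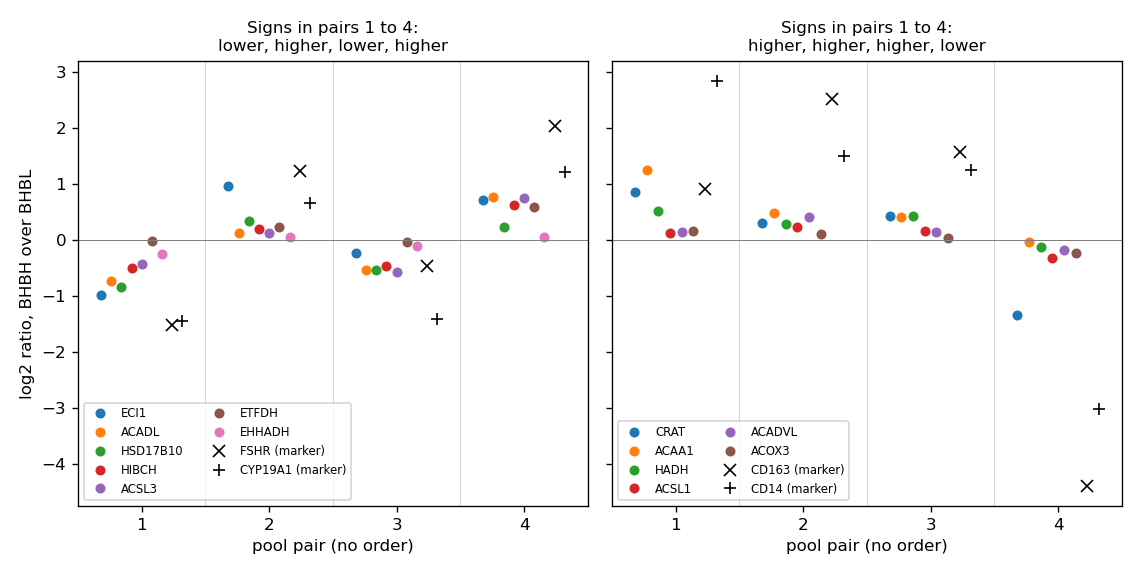
Log2 ratio, BHBH over BHBL, in each pool pair for the genes of the first (left) and the third (right) sign pattern, with markers as crosses. The enzymes run from -1.34 (CRAT, pair 4) to 1.26 (ACAA1, pair 1), and CD163 lies at -4.39 in pair 4.

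Levels of each pool, rebuilt from the separate channels (normexp, loess and Aquantile, mean of both dyes, log2 intensity), were added after the ratios were seen and carry no test. They show which pool of a pair was unusual within its own probe. For 0 of 32 members did the 4 BHBH levels lie clear of the 4 BHBL levels (2.9% of features). CPT2 stood at 9.68, 10.5, 11.01 and 10.8 in BHBH pools 1 to 4 and at 10.7, 10.4, 10.7 and 10.7 in BHBL, so the low value was BHBH pool 1. CRAT stood at 13.1, 12.9, 12.8 and 11.5 in BHBH and 12.1, 12.9, 12.4 and 13.0 in BHBL, with BHBH pool 4 the lowest of 8.

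ACSL5 levels were 12.6, 12.3, 11.8 and 10.2 in BHBH and 11.9, 13.6, 13.3 and 12.8 in BHBL. BHBH pool 4 was the lowest of the 8 and BHBL pool 2 the highest, and the groups overlapped. ACAA1 levels were 9.88, 8.92, 9.00 and 8.94 in BHBH and 8.66, 8.45, 8.57 and 9.12 in BHBL, with BHBH pool 1 above the other 7 pools. SLC25A20 had 8.80, 9.14, 9.45 and 9.88 in BHBH and 8.56, 8.51, 9.43 and 9.54 in BHBL. Each BHBH level was above the BHBL level of its pair. The levels spanned 1.08 in BHBH and 1.03 in BHBL, and these spans include differences between pairs that the ratio removes.

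**Figure D5:**
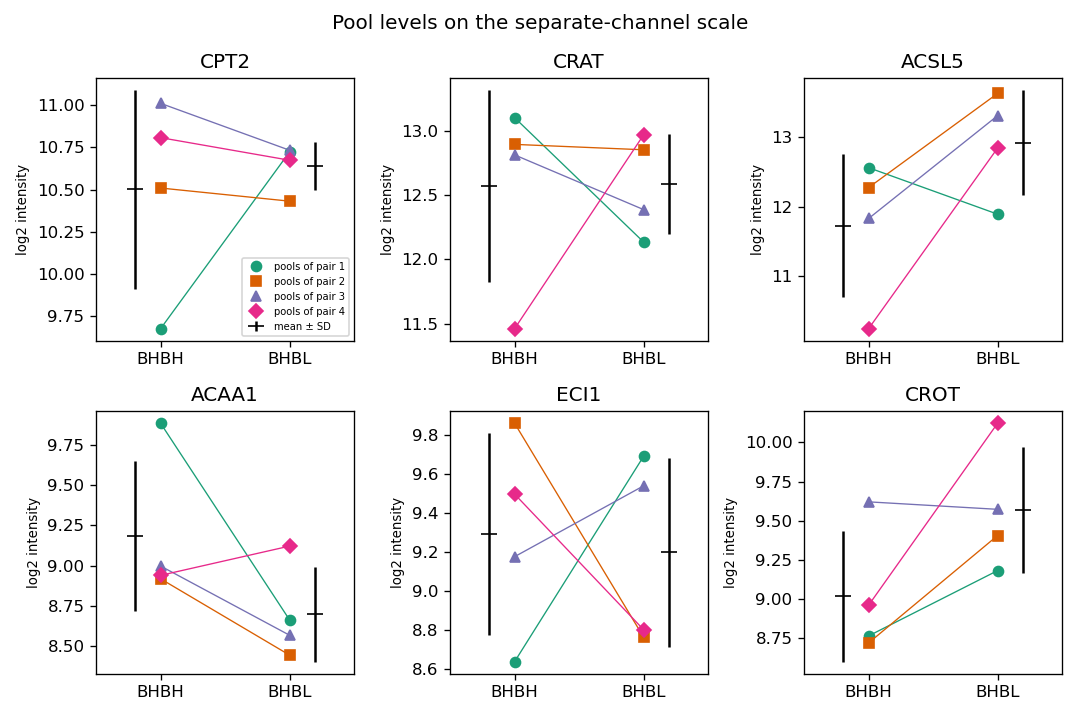
Log2 intensity of each BHBH and BHBL pool, from the separate channels, for members chosen after their values were seen, with 1 point per pool (mean of both dyes). The groups overlap for each gene, and BHBH pool 1 of CPT2 (9.68) and BHBH pool 4 of ACSL5 (10.2) are the lowest of their 8 pools.

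Other genes of the pathway, 38 listed by role and 36 measured, gave 0 called in the group test and 2 at an unadjusted p under 0.05 (5.24% of features), with a median of -0.032 and 22 below 0 (43.9% of features). The F test called 30 of 36 (54.3% of features, 66.4% of named genes). CPT1A, the liver form of the entry enzyme, had 0.52, -0.032, -0.0023 and -0.68 (mean -0.048 ± 0.21, adjusted p = 0.988, F test 5.23e-05), highest in pair 1 and lowest in pair 4. SLC27A2, a transporter and synthetase of very long chains, had -0.49, -0.063, -0.71 and -0.10 (mean -0.34 ± 0.14, adjusted p = 0.915), and PHYH, which starts the oxidation of phytanic acid, had -0.17, -0.15, -0.56 and -0.65 (mean -0.38 ± 0.12, adjusted p = 0.915). Both were below 0 in every pair without passing the test.

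SLC22A5, the carnitine transporter of the cell membrane, had the lowest mean of these genes, at -1.32, -3.03, -2.37 and -1.08 (mean -1.95 ± 0.38, unadjusted p = 0.00541, adjusted p = 0.889). With the 8 arrays fitted singly and the area as a replicate block its limma adjusted p was 0.0279, so the call depends on how dye-swapped arrays are counted. Its pool levels were 8.91, 8.83, 9.36 and 9.52 in BHBH and 10.3, 12.1, 11.9 and 10.9 in BHBL, without overlap (2.9% of features). The epithelial markers were lower in BHBH beside it, 8 of 8 on average, with pair medians of -0.38, -3.18, -3.79 and -1.87. CLDN4 (-2.71, -3.86, -4.40 and -2.04), MUC1, KRT7 and EPCAM were lower in every pair. KRT8, KRT18, KRT19 and CDH1 were higher in BHBH in pair 1 (3.62, 3.67, 0.21 and 0.16) and lower in the other pairs. CDH1 was dim, above the negative controls on 3 arrays in BHBH and 7 in BHBL. A further probe of EPCAM had a mean of 0.0013. The part of the epithelial markers in the SLC22A5 ratios was not tested.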

How the data were processed

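Each of 8 arrays carried 45212 spots, 1418 of them controls, with 43794 probes. The authors deposited 1 log2 ratio per probe and array, and the scanner's foreground and background intensity per spot, per the file headers. The submitters' processing notes name limma; its version is not stated, and neither background correction nor normalization of the deposited log2 values is documented in the sources used here. The direction, BHBH over BHBL, was checked against raw Cy5 over Cy3 intensity (correlation 0.818 to 0.926 on slide 289 and -0.948 to -0.770 on slide 288), so no sign was turned. Array medians lay between -0.0142 and 0.0396.

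A probe was kept if its median foreground in Cy3 or Cy5 exceeded the mean plus 2 SD of 153 negative control spots on 4 or more of 8 arrays. The 32445 features were 14081 named genes, each by its brightest probe, and 18364 probes without a symbol. Ratios were tested in R 4.3.3 with limma 3.58.1 (lmFit and eBayes), adjusted by Benjamini-Hochberg. The group test used 4 pool-pair averages; the F test used 8 arrays with slide as a covariate. The area number pairs the arrays because the deposited design describes dye-swapped technical replicates of each pool, and same-area arrays correlated best (0.650 to 0.801). Probes were matched by annotation symbol, and no coordinates or sequences are given. Errors written ± are limma standard errors over 4 pairs. The number of arrays limits the precision. Both tests were tested on simulated data. There the group test recovered 16% of 1.5-fold, 56% of 2-fold, 68% of 4-fold and 86% of 8-fold changes. The F test recovered 12% of simulated pool-pair differences at an SD of 0.3, 72% at 0.6 and 88% at 1. Changes of up to 4-fold could thus often be missed by the group test. The simulated spread was that of all features, with a median SD over the pairs of 0.197, against 0.365 for the members. These rates therefore need not hold for the members. Alternatives changed the background correction, the dim-probe filter, the probe rule, the variance model, the features tested, the slide and the pool pairs included.

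The members and gene lists were chosen with earlier results of these data known. Full values go to the members called in either test (the 12 of smallest p), the 2 of each step with the smallest unadjusted p, and 12 fixed genes; of the other pathway genes, CPT1A and the 3 of smallest p are named. Sign patterns, pool levels, the count of SDs above 0.5 and the genes in the plots of levels and patterns were chosen after the data were seen.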

Additional observations from a re-analysis of the deposited data

Results flagged for a closer look

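Of 96 groups of 4 values examined (the 4 pool-pair ratios and the 4 pool levels of each group, for 32 members), 2 had a value far from the other 3, where chance gives about 1 in 20. CPT2 had a ratio of -1.13 in pool pair 1, and 0.17 to 0.27 in the other pairs. ACAA1 had a level of 9.88 in BHBH pool 1, and 8.92 to 9.00 in the other BHBH pools.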

How the results depend on the processing

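No member was called against 0 in any of the 15 fits of the group comparison, and the lowest adjusted p of a member was 0.168. For 15 of 32 members the sign held in all 15. The arrays were paired by area number: with the 8 arrays fitted singly and area as a replicate block, 102 features and 0 members were called, and without the block 269 features and 0 members. The cause of that rise was not tested. SLC22A5 passed in both (adjusted p = 0.0279 and 0.0197). On single slides 5056 (slide 289) and 7456 (slide 288) features reached an unadjusted p under 0.05, against 1699 in the averages. The named genes alone gave 683 of those and 9560 features called by the F test, as fewer genes were tested.

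Mean ratios turned sign as follows. Under normexp and loess CPT1B was -0.0014, CRAT -0.018, ACSL1 -0.060, ETFB -0.0056 and ECI2 -0.023; without background correction they were -0.018, -0.024, -0.042, -0.0081 and -0.0038. With probes of a gene averaged HIBCH was 0.0047 and ACAA2 0.041. On slide 289 alone CPT1B was -0.14, CPT2 0.027, ACADL 0.063, ECI1 -0.019, EHHADH 0.080, ETFB -0.00097 and CPT1A 0.11. On slide 288 alone CRAT was -0.012, ACSL1 -0.12, ACSL3 0.11, HIBCH 0.096, ACOX3 -0.047 and DECR2 -0.020. The cause was not tested.

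Leaving out each pool pair in turn gave 0 calls of any feature, 955 to 3010 features at an unadjusted p under 0.05, a median over members of -0.014 to 0.11, and F calls of 15070 to 16346 features and 22 to 27 members. Of 32 members, 17 were called by the F test in all 11 fits, and 2, EHHADH and DECR2, in none. Beside the losses on leaving out a pair, F calls were lost for ACOX3 (adjusted p = 0.251 with normexp and loess, 0.208 without background correction, 0.0546 without the dim-probe filter, 0.0522 with an intensity trend), ECI2 (0.0525 without the filter), and, with probes averaged, ACADVL (0.0953) and ACAA2 (0.0665). Means that turned sign on leaving out a pair ran from -0.015 to 0.073 (CPT1B), -0.25 to 0.21 (CPT2), -0.21 to 0.53 (CRAT), -0.014 to 0.17 (ACSL1), -0.29 to 0.16 (ACSL3), -0.39 to 0.034 (FABP3), -0.38 to 0.12 (ACADL), -0.38 to 0.0077 (HSD17B10), -0.26 to 0.12 (HIBCH), -0.16 to 0.49 (ECI1), -0.10 to 0.0011 (EHHADH), -0.28 to 0.079 (ECHS1), -0.094 to 0.22 (ETFB), -0.031 to 0.098 (ACOX3), -0.0059 to 0.14 (ECI2) and -0.24 to 0.16 (CPT1A). CPT1B, ACOX2, ACOX3 and EHHADH were not above the negative controls on every array, which limits their ratios.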

Other observations

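Among the other pathway genes, with examples chosen after their values were seen, FABP4 and FABP5, fatty acid binding proteins of fat cells, macrophages and skin, had the widest pool-pair ratios. FABP5 ratios were 3.03, 1.99, 1.40 and -3.73 in pairs 1 to 4 (SD 3.01), with pool levels of 13.2, 12.6, 12.8 and 8.25 in BHBH and 10.1, 10.8, 11.4 and 12.2 in BHBL. BHBH pool 4 was the lowest of the 8. The macrophage markers CD14, CD163, CD68, CSF1R and ITGAM (a dim probe) had the signs of FABP5, as did 7.14% of features. PTPRC, CD3E, CD2, S100A8 and LYZ of the same list had other signs. The part of these markers in the FABP5 ratios was not tested. FABP4 ratios were 4.34, 0.80, -0.83 and -2.45 (SD 2.90), high in pair 1 and low in pair 4. AMACR, the racemase that prepares branched chains for peroxisomal oxidation, had -2.24, 1.28, -0.76 and 0.73, lower and higher in turn. None was called against 0 (limma, adjusted p = 0.970 for FABP5, 0.979 for FABP4 and 0.981 for AMACR), and all 3 were called by the F test.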
